A study of Homo sapiens with 2 samples.

Results

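The cytochrome P450 enzymes of families 1 to 29 and 39 were examined in HepG2 cells, a human liver cancer line, after transfection of an siRNA against SPRTN. Members were the genes whose symbol in the deposited tables begins with CYP, a family number in that range, a subfamily letter and a gene number, with pseudogene symbols left out. This rule found 54 genes among 60448 in the table. They were grouped by their known substrates into 21 xenobiotic enzymes, 5 enzymes of bile acid and sterol metabolism, 14 fatty acid enzymes, 12 enzymes of steroid hormones, vitamin D and retinoic acid, and 2 left unclassified.

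P450 enzymes are haem proteins that insert an oxygen atom into lipophilic substrates. Most sit in the endoplasmic reticulum and take electrons from the reductase POR, while the mitochondrial forms take them from ferredoxin. In the liver the xenobiotic families oxidise drugs and pollutants and the sterol families turn cholesterol into bile acids. Their genes are controlled by ligand-activated factors such as the aryl hydrocarbon receptor AHR, the pregnane X receptor and the bile acid receptor. HepG2 cells are known for low levels of many of the adult liver's drug-metabolising P450s.

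The data are 1 library of cells given the siRNA against SPRTN, a protease of DNA-protein crosslink repair, and 1 library of cells given a negative control siRNA. Both groups were HepG2 cells transfected with 40 nM siRNA by a lipid reagent for 24 h, with RNA taken at 72 h. Poly(A) RNA was sequenced, and values are FPKM, fragments scaled by gene length and library depth. With 1 library per group no test across libraries was possible, and no difference has a replicate check. Intervals in parentheses are exact, at 95%, from the reads each library gave a gene, and cover counting error only. Among the 60448 genes, 27505 had a value above 0 in the SPRTN siRNA library, against 26565 in the control, from about 67100000 assigned reads with SPRTN siRNA and 96400000 with control siRNA.

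SPRTN had 2.07 FPKM in the SPRTN siRNA library, against 7.81 FPKM in the control, 3.77-fold lower. The hepatocyte marker list summed to 29008 FPKM in the SPRTN siRNA library and 21023 FPKM in the control, with albumin and the other 7 markers all measured. Its median log2 ratio was 0.37, and TTR alone among the 8 was at least 2-fold higher. Albumin made most of the difference in the sum, at 16435.5 FPKM in the SPRTN siRNA library and 9997 FPKM in the control. The markers were split, with log2 ratios of -0.02 for APOB, -0.002 for TF and -0.15 for HNF4A and the others above 0. The 4 biliary markers summed to 556 FPKM in the SPRTN siRNA library and 477 FPKM in the control, mostly KRT19. Endothelial, blood and fibroblast markers were low. The 8 endothelial markers summed to 14.3 FPKM in the SPRTN siRNA library and 7.55 FPKM in the control with TEK at 0 in both, and CDH5 and LYVE1 among the 5 measured ones were at least 2-fold higher, CDH5 being under 1 FPKM in the control. TIE1 went the other way, at 1.07 FPKM in the SPRTN siRNA library and 1.84 FPKM in the control. The log2 ratio was 0.92 for ENG and 0.17 for PECAM1. The 5 blood markers summed to 9.49 FPKM with SPRTN siRNA and 8.72 FPKM with control siRNA with PTPRC at 0 in both, and the 6 fibroblast and stellate markers to 9.57 FPKM with SPRTN siRNA and 9.96 FPKM with control siRNA, with DCN and COL3A1 at 0 in both. Among 4 RNAs read as signs of RNA quality or nuclear content, MALAT1, NEAT1 and RN7SK were at least 2-fold higher in the SPRTN siRNA library and SNHG1 was not, the sum being 297 FPKM against 185 FPKM in the control. The part of these shifts in the results was not tested. In bulk samples, fewer cells of a kind and less RNA per cell cannot be told apart.

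An siRNA can also lower transcripts whose 3' UTR pairs with bases 2 to 8 of its guide strand, so the sites of this siRNA were searched in the P450 transcripts. The guide strand, the one complementary to the SPRTN transcript, is shown with these bases in capitals, followed by the 7-base site in DNA letters and by the 1 place where a P450 transcript holds it. In that last sequence, written 5′ to 3′ from 1 CYP1A1 transcript, the capitals mark the site.
siRNA guide strand: uUAACCAGaacuuccugac
7-base guide site: CTGGTTA
CYP1A1 transcript site: gctgtctccctCTGGTTAcaggaagctatg

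The site CTGGTTA occurred in an annotated 3' UTR of 1 of the 54 members (1.85%), against 10.4% of 19241 protein-coding genes and 12.1% of the 11139 measured ones. It was held by 51 of the 83 measured protein-coding genes that were lower by at least 2-fold (61.4%). It lay at base 179 of the 243-base 3' UTR of 1 of 10 annotated CYP1A1 transcripts, on the minus strand of chromosome 15. The site followed by an A (CTGGTTAA) occurred in 0 members. CYP1A1 was higher in the SPRTN siRNA library, and the other 53 members, the lower ones included, held no such site in an annotated 3' UTR. Whether guide pairing in other genes bears on the P450 levels was not tested.

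Of the 54 members, 21 had a mean of at least 1 FPKM over both libraries. Of these, 18 had a log2(FPKM + 1) ratio above 0, SPRTN siRNA over control, against 43.4% of the 13203 genes that passed the same filter. The median log2 ratio was 0.32 for the 21 members and -0.05 for all genes. Higher levels by at least 2-fold were found for 4 members, CYP1A1, CYP4F2, CYP3A43 and CYP19A1, with a background of 1.51% of genes and 1.24% of protein-coding ones. CYP2S1 alone was at least 2-fold lower, with a background of 0.788% of genes and 0.743% of protein-coding ones. Equality lay outside the counting interval of 20 of the 21 members, CYP2D7 being the exception, against a background of 75.8% of genes. CYP3A43 and CYP2D6 passed the filter through the SPRTN siRNA library, since both were under 1 FPKM in the control, so the count of 4 is not independent of the filter. The count was 2 when paralogs of the same subfamily were summed, and 2 among the 12 members with little shared sequence and no overlapping exon. CYP4F2 is outside these 12 for its shared sequence, and CYP19A1 only because 0.51% of its exon bases overlap a gene on the opposite strand. Some of the summed paralogs, such as CYP3A43, share little sequence, so that sum also joins genes that can be told apart. The median of 0.32 stood beside one of 0.37 for the hepatocyte markers, and the part of a shared shift was not tested.

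**Figure D1:**
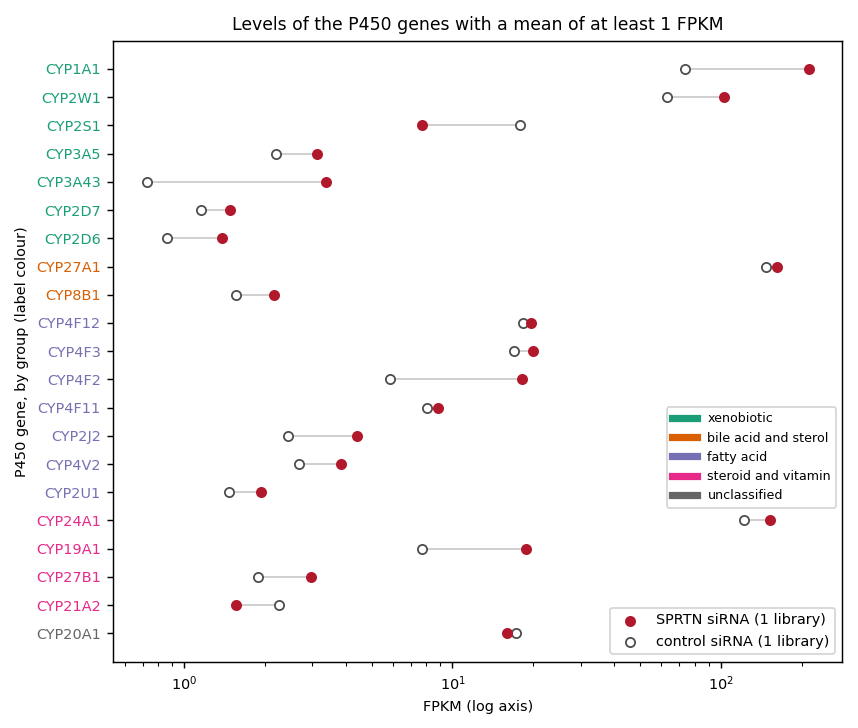
FPKM on a log axis of the 21 P450 genes with a mean of at least 1 FPKM, 1 row per gene, with filled points for the SPRTN siRNA library, open points for the control siRNA library and label colours for the groups. The filled point lies to the right for 18 genes, and CYP2S1, CYP21A2 and CYP20A1 lie the other way.

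Summed over the 54 members, the P450 level was 773 FPKM in the SPRTN siRNA library and 519 FPKM in the control, a ratio of 1.49. CYP1A1 made 55.1% of that difference, and without it the ratio was 1.26. The same 4 genes led in both libraries, with 81.6% of the sum in the SPRTN siRNA library, against 78.3% in the control. In the SPRTN siRNA library the order was CYP1A1, CYP27A1, CYP24A1 and CYP2W1. In the control the order was CYP27A1, CYP24A1, CYP1A1 and CYP2W1. The next genes in the SPRTN siRNA library, CYP4F3, CYP4F12, CYP19A1 and CYP4F2, lay between 18.1 and 19.9 FPKM, and neighbours in that order had overlapping counting intervals. Xenobiotic enzymes took 43.4% of the sum in the SPRTN siRNA library, against 30.8% in the control. Bile acid and sterol enzymes took 21.5% with SPRTN siRNA and 28.9% with control siRNA, although their own sum was higher, at 166 FPKM with SPRTN siRNA and 150 FPKM with control siRNA.

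Among the xenobiotic enzymes, 7 of 21 passed the filter, with a median log2 ratio of 0.36. At least 2-fold higher were CYP1A1 and CYP3A43, and CYP2S1 was lower by that size. CYP1A1, which oxidises polycyclic aromatic hydrocarbons and is the best known target of AHR, had 214 FPKM in the SPRTN siRNA library and 73.6 FPKM in the control. Its ratio was 2.90 (2.84 to 2.96), from 26424 reads with SPRTN siRNA and 13089 reads with control siRNA. CYP1A1 thus stood first among the P450s in the SPRTN siRNA library, ahead of genes that exceeded it in the control.

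Its neighbour CYP1A2, the main caffeine-oxidising enzyme of adult liver, is read in the opposite direction on chromosome 15, and 23.2 kb separate the starts. CYP1A2 had 0.858 FPKM in the SPRTN siRNA library and 0.0798 FPKM in the control, from 157 reads with SPRTN siRNA and 21 reads with control siRNA. Its ratio was 10.7 (6.79 to 17.9), at a level far under that of CYP1A1 in both libraries. CYP1B1, of the same family, which also oxidises oestradiol, had 17 reads in the SPRTN siRNA library, against 3 in the control, a ratio of 8.15 (2.36 to 43.4). All 3 genes of family 1 were thus higher by at least 2-fold as plain FPKM ratios. CYP1A2 and CYP1B1 lay below the filter. There, 24.4% of genes with at least 20 reads, and 29.8% of protein-coding ones, had a ratio of at least 2. CYP1B1 shares 11.3% of its exon bases with an antisense gene, and without knowledge of strand the reads of the pair cannot be told apart.

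The bases before the start of CYP1A2, the member with the highest ratio among those with over 100 reads, are shown because AHR is known to act on P450 promoters. They come from the window of 250 bases before the RefSeq start on GRCh38.p14, without the last 1 base, which GENCODE annotates as exon. The strand is that of the gene, 5′ to 3′, and capitals mark TATAAA.
CYP1A2, chr15:74748595-74748843, plus strand: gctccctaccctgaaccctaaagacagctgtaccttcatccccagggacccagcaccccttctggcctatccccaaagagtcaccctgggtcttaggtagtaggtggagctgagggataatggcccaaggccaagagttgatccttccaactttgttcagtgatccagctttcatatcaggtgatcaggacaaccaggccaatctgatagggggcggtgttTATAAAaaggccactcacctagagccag

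In this window TATAAA, searched on the gene's strand only, began at -29 from the start, and the AHR core GCGTG, searched on both strands, was not found. Bases farther upstream were not searched, so this does not show that CYP1A2 lacks AHR sites. In the CYP1A1 window TATAAA began at -32 and GCGTG stood once, at -57, within 82 bases that an alternative transcript covers as exon. The CYP2S1 window held neither, but 170 of its bases are annotated as exon of CYP2S1 and only 80 lie upstream of them. Of all 35116 RefSeq windows of this length, 32.2% hold GCGTG and 6.8% hold TATAAA. The longer AHR motif TNGCGTG, which contains GCGTG, was in none of the 3 windows and in 4.52% of all windows. Of the 54 members, 38 had a RefSeq window, and 14 of these held TATAAA beginning between -40 and -20 in at least 1 window, or 36.8%, against 2.3% of all windows. A member can have several windows, and paralogs share sequence, so these are not independent. The 14 include CYP1A1, CYP1A2, CYP19A1, CYP26A1, CYP3A7 and CYP2E1, which were higher by at least 2-fold as plain ratios, and CYP3A4, which was not. CYP2C8, with 6 reads with SPRTN siRNA and 0 with control siRNA, and CYP4B1, with 1 read in each library, are also among the 14. So are CYP2A6, CYP2A7, CYP2A13, CYP2C19 and CYP26C1, which were listed at 0 in both libraries. CYP4F2, CYP3A43, CYP7A1, CYP39A1, CYP26B1, CYP2B6 and CYP1B1 were higher by that size but are not among the 14, for want of the motif there or of a window.

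CYP2W1, an enzyme known from fetal gut and colon tumours, had 103 FPKM in the SPRTN siRNA library and 63.1 FPKM in the control, a ratio of 1.63 (1.58 to 1.68). CYP2S1, an enzyme mainly of tissues outside the liver, had 7.70 FPKM in the SPRTN siRNA library and 17.8 FPKM in the control. That is 2.31-fold lower (2.11 to 2.54), from 576 reads with SPRTN siRNA and 1916 reads with control siRNA, and its log2(FPKM + 1) ratio was -1.11. CYP2S1 shares none of its 50-base words with another gene, and no exon of another gene overlaps it. CYP2D6, an enzyme of many psychiatric and heart drugs, had 1.38 FPKM in the SPRTN siRNA library and 0.865 FPKM in the control. Its neighbour CYP2D7, annotated as a polymorphic pseudogene, had 1.48 FPKM with SPRTN siRNA and 1.16 FPKM with control siRNA, and its interval included equality. The 2 genes share 34.4% and 33.1% of their 50-base words, mostly with each other, so the split of reads between them is uncertain.

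The CYP3A genes lie within 218 kb of chromosome 7, and their members differed from each other. CYP3A43, a minor form, had 3.39 FPKM in the SPRTN siRNA library and 0.724 FPKM in the control, a ratio of 4.68 (3.62 to 6.10). CYP3A5, a form that many people lack, had 3.12 FPKM in the SPRTN siRNA library and 2.20 FPKM in the control, a ratio of 1.42 (1.22 to 1.65). The intervals of these genes did not overlap. CYP3A7, the fetal form, had 0.566 FPKM in the SPRTN siRNA library and 0.277 FPKM in the control, and 39.6% of its exon bases belong also to a readthrough gene. CYP3A4, the leading drug-oxidising enzyme of adult liver, had 8 reads in the SPRTN siRNA library, against 18 in the control, with a ratio of 0.639 (0.240 to 1.54) that includes equality.

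Several other xenobiotic enzymes, only some of them leading ones of adult liver, were also near 0. CYP2E1, which oxidises ethanol, had 13 reads in the SPRTN siRNA library, against 7 in the control, and SYCE1 overlaps 21.5% of its exon bases on the opposite strand. CYP2B6, a target of the receptor CAR, had 29 reads with SPRTN siRNA and 9 reads with control siRNA, a ratio of 4.52 (2.14 to 11.1). CYP2C8 had 6 reads in the SPRTN siRNA library, against 0 in the control, 2.88-fold higher when the control is set at a floor of 3 reads, with a counting interval that starts at 1.69. CYP2C18 had 2 reads in the SPRTN siRNA library, against 0 in the control, and CYP2F1 had 0 with SPRTN siRNA and 1 with control siRNA. CYP2C19, CYP2A6, CYP2A7 and CYP2A13 were listed at 0 in both.

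**Figure D2:**
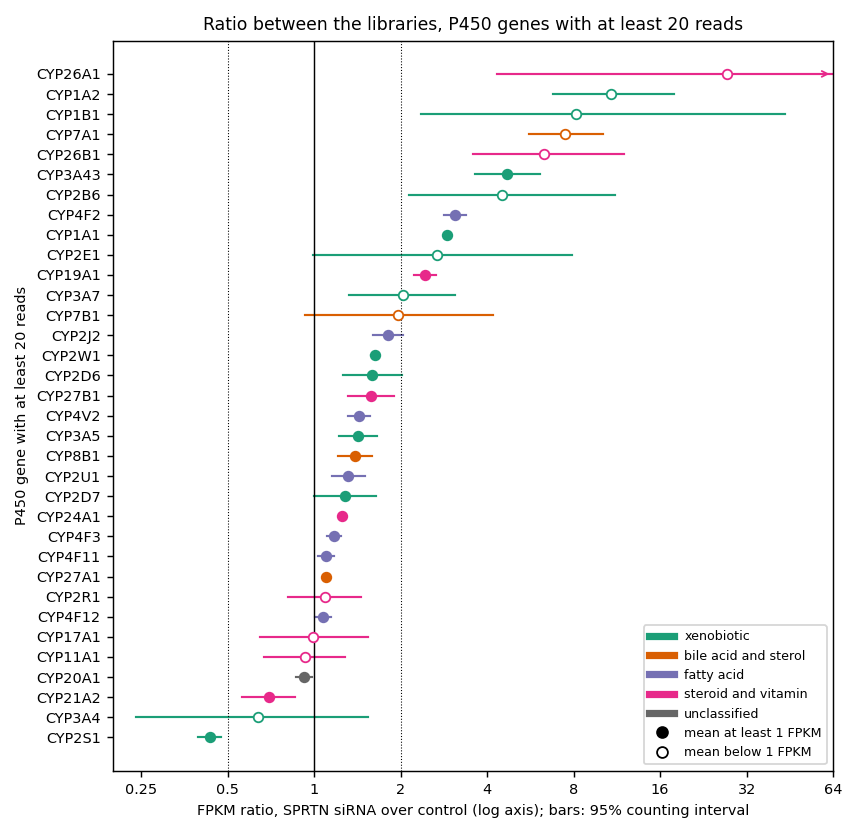
FPKM ratio of the SPRTN siRNA library over the control on a log axis for the 34 P450 genes with at least 20 reads over both libraries, 1 row per gene, with exact 95% counting intervals as bars (an arrow marks an interval past the axis) and colours for the groups. Filled points are genes with a mean of at least 1 FPKM, open points those below, and dotted lines mark 2-fold; 12 genes lie at or past 2-fold higher and CYP2S1 alone past 2-fold lower.

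Of the 5 bile acid and sterol enzymes, 2 passed the filter, both with a log2 ratio above 0. CYP27A1, the mitochondrial sterol hydroxylase that opens the alternative pathway of bile acid synthesis, had 162 FPKM in the SPRTN siRNA library and 148 FPKM in the control. Its ratio of 1.10 (1.08 to 1.12) was small beside that of CYP1A1. CYP8B1, the sterol hydroxylase needed for cholic acid, had 2.16 FPKM in the SPRTN siRNA library and 1.56 FPKM in the control, a ratio of 1.39 (1.21 to 1.59).

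CYP7A1, the rate-limiting enzyme of the classic bile acid pathway, had 1.50 FPKM in the SPRTN siRNA library and 0.200 FPKM in the control. It missed the filter with a mean just under 1 FPKM, and its ratio was 7.47 (5.61 to 10.1), from 296 reads with SPRTN siRNA and 57 reads with control siRNA. CYP7A1 was the highest bile acid enzyme after CYP27A1 and CYP8B1 in the SPRTN siRNA library. CYP7B1, an oxysterol hydroxylase of the alternative pathway, had 19 reads in the SPRTN siRNA library, against 14 in the control, a ratio of 1.95 (0.928 to 4.21) that includes equality. CYP39A1, another oxysterol hydroxylase, had 15 reads with SPRTN siRNA and 4 reads with control siRNA, a ratio of 5.39 (1.72 to 22.3). All 5 genes of the group had ratios above 1, and the intervals of 4 of them excluded equality, against 75.8% of the genes that passed the filter. Only 2 of these 5 genes passed it, so the 2 shares cover unlike sets.

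Of the 14 fatty acid enzymes, 7 passed the filter, and all 7 had a log2 ratio above 0, with a median of 0.25. CYP4F2, which hydroxylates the tail end of arachidonic acid and of vitamins E and K, had 18.1 FPKM in the SPRTN siRNA library and 5.86 FPKM in the control. Its ratio was 3.09 (2.82 to 3.38), from 1531 reads with SPRTN siRNA and 713 reads with control siRNA. CYP4F2 shares 12.1% of its 50-base words with other genes, mostly with CYP4F3.

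Its neighbours within 426 kb of chromosome 19 differed far less. CYP4F3, the leukotriene hydroxylase, had 19.9 FPKM in the SPRTN siRNA library and 17.0 FPKM in the control, a ratio of 1.17 (1.11 to 1.24). CYP4F12 had 19.6 FPKM in the SPRTN siRNA library and 18.3 FPKM in the control, a ratio of 1.08 (1.01 to 1.15). CYP4F11 had 8.83 FPKM in the SPRTN siRNA library and 8.03 FPKM in the control, a ratio of 1.10 (1.03 to 1.17). None of these intervals reached that of CYP4F2, which stood below all 3 in the control and above CYP4F11 in the SPRTN siRNA library. CYP4F8 and CYP4F22, at the far end of the cluster, were listed at 0 in both libraries.

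**Figure D3:**
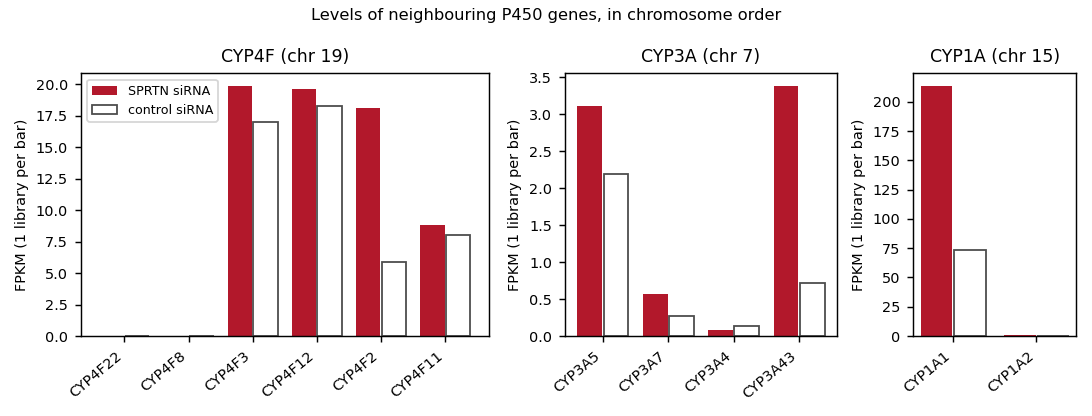
FPKM of neighbouring P450 genes in chromosome order, with filled bars for the SPRTN siRNA library and open bars for the control siRNA library, 1 library per bar and a separate scale in each panel. CYP4F2 stands at 18.1 FPKM with SPRTN siRNA and 5.86 FPKM with control siRNA beside CYP4F3, CYP4F12 and CYP4F11 with nearly level bars, CYP3A43 at 3.39 FPKM with SPRTN siRNA and 0.724 FPKM with control siRNA, and CYP1A1 at 214 FPKM with SPRTN siRNA and 73.6 FPKM with control siRNA beside the far lower CYP1A2.

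CYP2J2, an arachidonic acid epoxygenase, had 4.39 FPKM in the SPRTN siRNA library and 2.44 FPKM in the control, a ratio of 1.80 (1.60 to 2.04). CYP4V2, the fatty acid hydroxylase mutated in Bietti crystalline dystrophy, had 3.85 FPKM in the SPRTN siRNA library and 2.69 FPKM in the control, a ratio of 1.43 (1.31 to 1.57). CYP2U1, mutated in a form of hereditary spastic paraplegia, had 1.94 FPKM in the SPRTN siRNA library and 1.47 FPKM in the control, a ratio of 1.31 (1.15 to 1.50). These 3 genes were higher by less than 2-fold. CYP4Z1 had 6 reads in the SPRTN siRNA library, against 0 in the control, 2.88-fold higher against a floor of 3 reads with an interval that starts at 1.69, and 30.6% of its 50-base words are shared with a pseudogene. CYP4B1 had 1 read in each library. CYP4A11 and CYP4A22, the PPARA-responsive omega hydroxylases of liver, and CYP4X1 were listed at 0 in both.

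Of the 12 enzymes of steroids, vitamin D and retinoic acid, 4 passed the filter, with a median log2 ratio of 0.39. CYP19A1, the aromatase that turns androgens into oestrogens, had 18.7 FPKM in the SPRTN siRNA library and 7.72 FPKM in the control. Its ratio was 2.43 (2.23 to 2.64), from 1468 reads with SPRTN siRNA and 869 reads with control siRNA. CYP24A1, which breaks down active vitamin D, had 153 FPKM in the SPRTN siRNA library and 122 FPKM in the control, a ratio of 1.25 (1.22 to 1.28). CYP27B1, which makes active vitamin D, had 2.96 FPKM in the SPRTN siRNA library and 1.88 FPKM in the control, a ratio of 1.58 (1.31 to 1.90). The degrading enzyme thus stood far above the activating one in both libraries, and CYP2R1, the liver's vitamin D hydroxylase, was lower still at 0.973 FPKM in the SPRTN siRNA library and 0.892 FPKM in the control.

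CYP21A2, the adrenal steroid hydroxylase, was lower, at 1.56 FPKM in the SPRTN siRNA library and 2.25 FPKM in the control, a ratio of 0.694 (0.562 to 0.857). It shares 33.2% of its 50-base words with its pseudogene CYP21A1P and overlaps TNXB on the opposite strand, so its count is uncertain. CYP11A1, the enzyme that cuts the cholesterol side chain, had 0.868 FPKM in the SPRTN siRNA library and 0.938 FPKM in the control, and an antisense gene overlaps 21.2% of its exon bases. CYP17A1, which makes androgen precursors, had 0.392 FPKM in the SPRTN siRNA library and 0.395 FPKM in the control, and 41.1% of its exon bases overlap WBP1L on the opposite strand. For CYP2R1, CYP11A1 and CYP17A1 the intervals included equality. Of 4 steroidogenic markers, NR5A1, a regulator of steroid-producing glands, was measured at 57.5 FPKM in the SPRTN siRNA library and 53.8 FPKM in the control, and the adrenal enzyme gene HSD3B2 was at 0 in both. STAR had 0.913 FPKM in the SPRTN siRNA library and 1.02 FPKM in the control. MC2R had 12 reads with SPRTN siRNA and 0 reads with control siRNA.

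The retinoic acid hydroxylases were low and higher in the SPRTN siRNA library. CYP26B1 had 66 reads in the SPRTN siRNA library, against 15 in the control, a ratio of 6.33 (3.57 to 11.9). CYP26A1, a direct target of retinoic acid receptors, had 19 reads with SPRTN siRNA and 1 read with control siRNA, a ratio of 27.3 with a wide interval that starts at 4.34. A processed transcript covers 25.2% of the exon bases of CYP26A1 on its own strand. CYP26C1, next to it on chromosome 10, was listed at 0 in both libraries, as were CYP11B1 and CYP11B2.

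The unclassified CYP20A1, an enzyme with no settled substrate, had 15.9 FPKM in the SPRTN siRNA library and 17.3 FPKM in the control, a ratio of 0.922 (0.864 to 0.984). CYP27C1 had 0 reads in the SPRTN siRNA library, against 2 in the control.

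Of the 33 members below the filter, 12 were listed at 0 in both libraries. For these a count of 0 allows up to 0.0152 to 0.0378 FPKM in the SPRTN siRNA library and 0.0106 to 0.0263 FPKM in the control, depending on gene length. None of 8 housekeeping genes was listed at 0. A further 8 members had fewer than 20 reads in all. Of the 13 low members with at least 20 reads, 8 had an FPKM ratio of at least 2, against a background of 24.4% of 5481 such genes and 29.8% of 2350 protein-coding ones. The 8 are CYP1A2, CYP3A7, CYP2B6, CYP1B1, CYP2E1, CYP7A1, CYP26B1 and CYP26A1, and the interval of CYP2E1 (0.990 to 7.90) includes equality. No low member had a ratio of 0.5 or less, against a background of 10.1%, and 8.04% of protein-coding ones. Low genes as a whole were thus more often higher than lower in the SPRTN siRNA library, and the P450 count is read beside that.

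**Figure D4:**
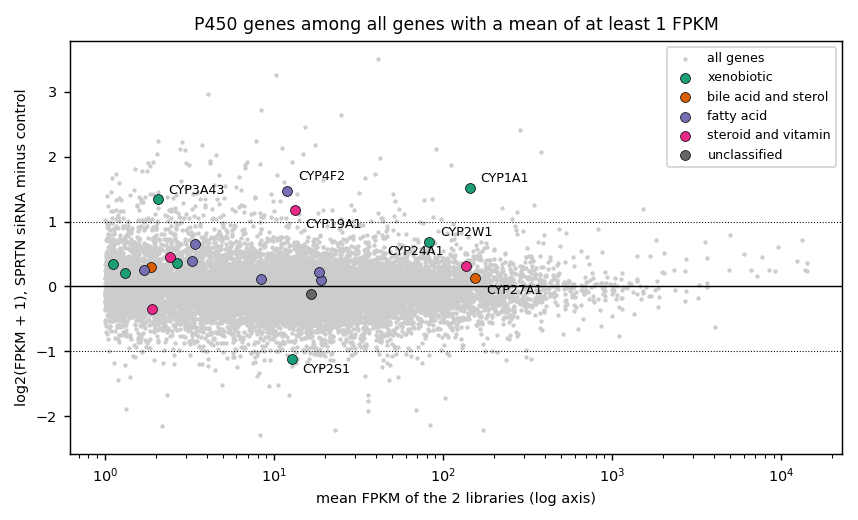
Mean FPKM of both libraries on a log axis against the log2(FPKM + 1) ratio, SPRTN siRNA minus control, for all 13203 genes with a mean of at least 1 FPKM (grey) and the 21 P450 genes among them (coloured by group), with dotted lines at 2-fold. CYP1A1, CYP4F2, CYP3A43 and CYP19A1 lie above the upper line and CYP2S1 below the lower one.

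In the authors' deposited table, 15 of the 38 members with a log2 fold change are called, 14 of them higher and 1 lower. In the authors' deposited table the background is 9.2% of 25035 genes called higher and 3.32% called lower. The called members add to those above CYP39A1, CYP2C8 and CYP4Z1, all under 20 reads, and leave out CYP2E1. These calls compare 1 library with 1 library, by a method that the labels do not describe beyond naming edgeR.

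The partners of the P450s were read from 7 lists, whose medians lay on both sides of 0. The background for their counts is the same, 1.51% of genes at least 2-fold higher, 0.788% lower and 43.4% with a log2 ratio above 0. Of 9 measured electron donors, 0 were at least 2-fold different in either direction, and the median log2 ratio was -0.14. POR, the reductase that feeds the microsomal P450s, had 329 FPKM in the SPRTN siRNA library and 370 FPKM in the control, and the haem-binding partner PGRMC1 had the lowest log2 ratio at -0.33. The ferredoxin gene FDX1 had 6.53 FPKM in the SPRTN siRNA library and 8.20 FPKM in the control. Of 12 measured genes of haem synthesis and breakdown, 0 were at least 2-fold different, with a median of -0.08. ALAS1, the rate-limiting enzyme of haem synthesis in liver, had 21.7 FPKM in the SPRTN siRNA library and 23.9 FPKM in the control. The lowest log2 ratio was that of the biliverdin reductase gene BLVRA at -0.37.

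Of 21 measured regulators, 1 was at least 2-fold higher and 0 lower, with a median of -0.09. That one was AHRR, the repressor of AHR that AHR itself induces, with 1.95 FPKM in the SPRTN siRNA library and 0.436 FPKM in the control, from 208 reads with SPRTN siRNA and 67 reads with control siRNA. AHRR passed the filter through the SPRTN siRNA library, so its count here and among the AHR targets is not independent of the filter. AHR had 18.3 FPKM in the SPRTN siRNA library and 13.6 FPKM in the control, a ratio of 1.35 (1.29 to 1.41), and its partner ARNT had 14.9 FPKM with SPRTN siRNA and 16.1 FPKM with control siRNA. The pregnane X receptor gene NR1I2, which drives CYP3A genes, had 6.44 FPKM in the SPRTN siRNA library and 8.50 FPKM in the control, while NR1I3, which encodes CAR, had 1.38 FPKM with SPRTN siRNA and 0.883 FPKM with control siRNA. The bile acid receptor gene NR1H4 had 21.5 FPKM in the SPRTN siRNA library and 21.4 FPKM in the control. NR0B2, the small heterodimer partner that represses CYP7A1, had 49.5 FPKM in the SPRTN siRNA library and 36.1 FPKM in the control. CEBPB was the lowest regulator at a log2 ratio of -0.96, next to NR3C1, the glucocorticoid receptor gene, at -0.59.

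Of the AHR targets 6 genes were measured, 4 with a log2 ratio above 0 and 2 below. At least 2-fold higher were 3 of the 6, with 0 lower by that size, and AHRR is on both lists. ALDH3A1, an aldehyde dehydrogenase, had 10.1 FPKM in the SPRTN siRNA library and 2.44 FPKM in the control, a ratio of 4.13 (3.58 to 4.77). UGT1A1, which conjugates bilirubin, had 11.0 FPKM in the SPRTN siRNA library and 2.40 FPKM in the control, and shares its last exons with the other UGT1A genes. TIPARP, also induced by AHR, had 5.65 FPKM in the SPRTN siRNA library and 7.08 FPKM in the control, and NQO1 had 671 FPKM with SPRTN siRNA and 664 FPKM with control siRNA. SLC7A5, with TIPARP the measured targets below 0, had 364 FPKM with SPRTN siRNA and 382 FPKM with control siRNA. Below the filter, UGT1A6 had 128 reads with SPRTN siRNA and 14 reads with control siRNA, a ratio of 13.1 (7.55 to 24.7). PAPSS2 had 94 reads with SPRTN siRNA and 49 reads with control siRNA, a ratio of 2.76 (1.93 to 3.98). LRAT went the other way, at 1 read with SPRTN siRNA and 6 reads with control siRNA, and ALDH1A3 was at 0 in both. A ratio of at least 2 was found for 24.4% of low genes with at least 20 reads.

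Conjugating enzymes, which act on P450 products, were nearer to the P450s in direction. The log2 ratio was above 0 for all 12 measured genes, the median being 0.43, and 2 were at least 2-fold higher, UGT1A1 and UGT2B4. UGT2B4 had 8.18 FPKM in the SPRTN siRNA library and 2.15 FPKM in the control, and UGT2B7 had 97.2 FPKM with SPRTN siRNA and 48.6 FPKM with control siRNA, just under the threshold at 0.99 and at or above it, from 1.00 to 1.05, under 5 alternatives. Of 13 measured bile acid partners, 0 were at least 2-fold different, 9 were above 0 and the median was 0.21. The transporter subunit gene SLC51B had a log2 ratio of 0.93 and its partner SLC51A one of -0.55. KLB, the co-receptor through which FGF19 lowers CYP7A1, had 29.3 FPKM in the SPRTN siRNA library and 19.6 FPKM in the control, and FGF19 itself had 33 reads with SPRTN siRNA and 38 reads with control siRNA. Of the 4 P450 genes outside the families of the rule, CYP51A1, the demethylase of cholesterol synthesis, had 7.77 FPKM in the SPRTN siRNA library and 11.4 FPKM in the control, and TBXAS1, thromboxane synthase, had 2.04 FPKM with SPRTN siRNA and 1.37 FPKM with control siRNA. PTGIS was listed at 0 in both libraries and CYP46A1 had 1 read in each.

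**Figure D5:**
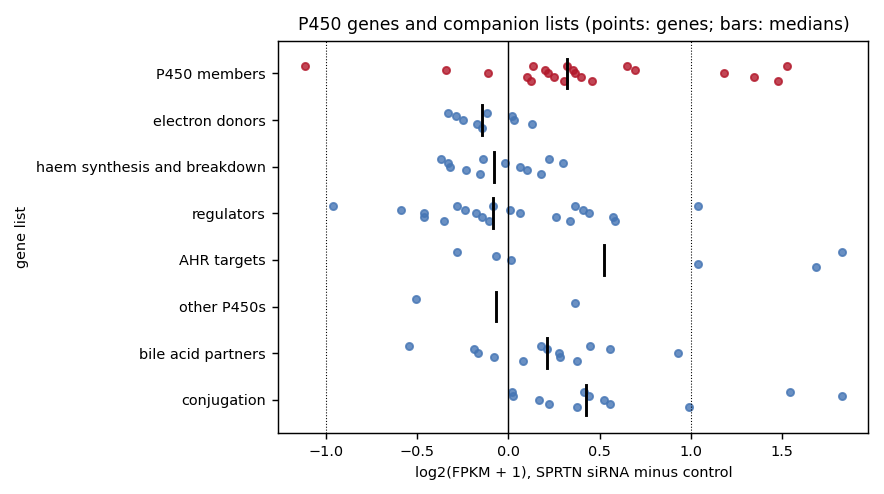
The log2(FPKM + 1) ratio, SPRTN siRNA minus control, of the measured P450 genes (top row) and of the measured genes of 7 companion lists, 1 point per gene, with bars at the medians and dotted lines at 2-fold. The medians run from -0.14 for electron donors to 0.53 for AHR targets, with the P450 genes at 0.32.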

How the data were processed

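Poly(A) RNA of HepG2 cells was sequenced, with 1 library per group. Per the labels, groups follow the treatment of each sample, and the column whose name begins with si was read as SPRTN siRNA. The authors deposited FPKM values for 60448 genes. The name of the sheet mentions row means without saying of what, so several cultures may lie behind 1 column. The submitters' processing notes name GRCh38.p13 and edgeR. Aligner, counter, annotation and strand were not given in the sources used here. Also deposited by the authors was a table with a length-scaled signal, 1.44 times the FPKM in the control, a log2 fold change equal to the log2 FPKM ratio, and p-values.

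Reads were recovered as FPKM times the mean transcript length in GENCODE release 29, divided by the worth of 1 read. This gave whole numbers, to within 0.05, for 93.4% of SPRTN siRNA values and 94.0% of control values of at most 20 reads. Ratios beside FPKM values are plain FPKM ratios with exact Clopper-Pearson 95% intervals. PCR copies are not independent molecules, so intervals and floors (3 reads) cover counting error only. Genes were compared as log2(FPKM + 1) at a mean of at least 1 FPKM, by a 2-fold size rule, since 1 library per group allows no test. On this scale the changes of low genes look smaller than they are. Shared sequence was measured as 50-base words found in transcripts of other genes. All members past the filter are named, as are SPRTN, the highest members below the filter and the companion genes with the largest ratios. Some others, such as ALAS1 and FGF19, were named for their role after their values were seen. After their values were seen, SLC7A5, UGT1A6, PAPSS2, LRAT and ALDH1A3 were named to complete the AHR target list. The members and lists were chosen with earlier results of these data known. The scripts (Python 3.11.15, pandas 2.3.3, scipy 1.17.1) were tested on simulated data. Values of some genes are not reported here.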

Additional observations from a re-analysis of the deposited data

How the results depend on the processing

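No paired analysis was possible because each group has 1 library, and for the same reason no replicate could be left out. The counts of 4 higher and 1 lower members were within 1.5 times of these values with a pseudocount of 0.1, other filters, other scalings, recovered reads, and without the member that holds a guide site. Summing paralogs of the same subfamily, whether or not they share much sequence, gave 2 higher of 16 units. Keeping the 12 members with little shared sequence and no overlapping exon, a choice made after seeing the data, also gave 2 higher. CYP19A1 was left out there for an overlap of 43 of its 8437 exon bases, although it shares none of its 50-base words with another gene. The median of the xenobiotic enzymes, 0.36, was 0.62 with a pseudocount of 0.1, 0.67 with recovered reads, and 0.69 at a mean of at least 5 FPKM, with paralogs summed, and among members with little shared sequence. The median of the steroid and vitamin enzymes, 0.39, was 0.75 at a mean of at least 5 FPKM. The ratio of the summed level, 1.49, was 1.55 with median-of-ratios scaling, 1.65 without CYP27A1 and, by choices made after seeing the data, 1.26 without CYP1A1 and 1.26 without the 4 highest members. The 40 genes past the filter that the naming rule chose kept their direction under each of 5 alternatives. That outcome was largely fixed in advance, so the 5 are not independent checks. A smaller pseudocount cannot flip a sign, and recovered reads and the authors' log2 fold change nearly restate the FPKM ratio. Centring and median-of-ratios scaling shift all genes by a small amount in the same direction. Depth limits the 12 members listed at 0, for which no difference can be read, and the 8 others under 20 reads, whose intervals are wide.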

Other observations

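P450 pseudogenes and antisense transcripts were looked at beside the genes. Of 46 pseudogenes named in the table, 27 were listed at 0 in both libraries and 1 had a mean of at least 1 FPKM. That one, CYP21A1P, had 1.08 FPKM in the SPRTN siRNA library and 1.14 FPKM in the control, while its functional copy CYP21A2 had 1.56 FPKM with SPRTN siRNA and 2.25 FPKM with control siRNA. CYP2AB1P had 51 reads in the SPRTN siRNA library, against 2 in the control, a ratio of 36.7 with an exact 95% counting interval of 9.64 to 310.9. CYP2D8P, beside CYP2D6 and CYP2D7, had 77 reads with SPRTN siRNA and 55 reads with control siRNA, a ratio of 2.01 (1.41 to 2.90). CYP4F60P had 1.28 FPKM in the SPRTN siRNA library and 0.567 FPKM in the control, a ratio of 2.25 (1.40 to 3.69). The antisense transcript CYP4A22-AS1 had 18 reads in the SPRTN siRNA library, against 3 in the control, although CYP4A22 itself was listed at 0 in both. CYP4F30P went the other way, with 2 reads in the SPRTN siRNA library, against 13 in the control, a ratio of 0.221 (0.0242 to 0.977). CYP2AB1P, CYP2D8P, CYP4F60P, CYP4F30P and CYP4A22-AS1 were named after their values were seen.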
